A study of Mus musculus with 3 samples.

Results

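Cells positive for both Fosb and Atf3 were examined in sections of 3 mammary tumours from MMTV-PyMT mice, imaged with the MERSCOPE platform, which decodes single RNA molecules in place and assigns them to segmented cells. They were chosen by their own transcript counts. A cell qualified with at least 2 Fosb and at least 2 Atf3 transcripts, fewer than 3 Krt17 transcripts, Col1a1 under 10% of its panel transcripts, and no Adgre1 or Cx3cr1. This selected 4928 of 1747403 kept cells: 1989 of 619770 in tumour 1, 707 of 453995 in tumour 2 and 2232 of 673638 in tumour 3. Kept cells had at least 20 panel transcripts and a volume between 50 µm3 and 3 times the section's median.

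The 3 tumours form 1 group, titled MMTV-PyMT WT, with 1 formalin-fixed, paraffin-embedded section each. In this transgenic line a mammary tumour virus promoter drives polyoma middle T, so carcinomas start in mammary epithelium. No treatment was given. The labels do not state what WT refers to, how old the mice were or whether each tumour came from its own mouse. The p-values below therefore measure the spread between these 3 sections. The panel was designed for 265 genes, and the tables used here hold 258 genes and 27 blank codes, which match no RNA and measure false decoding. Kept cells had a median of 94 to 106 panel transcripts, and blanks made up 0.481% to 0.503% of transcripts.

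Fosb and Fos are subunits of the dimeric transcription factor AP-1, which pairs a Fos family protein with a Jun family protein and binds the sequence TGANTCA. Atf3 is a related factor of the ATF/CREB family that is induced by many kinds of cell stress. Their genes, together with Egr1, Klf4, the Nr4a orphan receptors and the phosphatase gene Dusp1, belong to the immediate early and stress-induced genes, which cells switch on within minutes of growth factors, wounding or stress, without new protein synthesis. None of the listed heat shock or unfolded protein response genes is on the panel, so the state of the cells could be described by immediate early genes only. They are called Fosb+ Atf3+ cells below.

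Fosb+ Atf3+ cells were rare in all 3 tumours. They made up 0.321% of kept cells in tumour 1 (exact 95% interval 0.307 to 0.335), 0.156% in tumour 2 (0.144 to 0.168) and 0.331% in tumour 3 (0.318 to 0.345), intervals that cover counting error only. Tumour 2 held the smallest share. Being picked on counts, they were cells with many transcripts, with medians of 174, 215 and 215. Their share rose from between 0.0151% and 0.0418% among cells of 20 to 59 transcripts to between 0.594% and 1.97% among cells of 250 or more. When each cell with at least 60 transcripts was thinned to 60, the share was 0.103%, 0.0382% and 0.0958%, against 0.407%, 0.198% and 0.449% in the same cells unthinned, and tumour 2 remained lowest. Thinning left out 105618 to 186080 shallower cells per tumour.

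Both genes were present together more often than their separate shares would give. Before the other limits, 2481, 879 and 3833 cells had at least 2 of both, whereas the product of the separate shares came to 181, 73.4 and 447 cells. Depth contributes to this, and within the band of 100 to 149 transcripts 535, 136 and 484 such cells stood against 47.9, 11.9 and 77.1. Over all 351 pairs of blanks, the pair most often present together in at least 2 copies was seen in 45, 41 and 188 cells, and the median pair in 0. The summed Fosb signal was 1.88, 1.27 and 2.26 times that of the highest blank, and the summed Atf3 signal 2.86, 2.86 and 5.87 times, so single Fosb transcripts lay close to background.

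The limit on Krt17 removed few cells in tumours 1 and 2 and many in tumour 3. Krt17, a keratin of basal and stressed epithelium, reached 3 transcripts in 50 of the 2481 doubly positive cells of tumour 1 (2.02%), in 65 of 879 in tumour 2 (7.39%) and in 1299 of 3833 in tumour 3 (33.9%). In all kept cells it did so in 0.766%, 0.880% and 4.19%. The macrophage limit removed 424, 106 and 496 cells and the collagen limit 45, 13 and 15, counts that overlap. The shares of Fosb+ Atf3+ cells in tumour 3 thus describe the Krt17-low fraction.

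The summed epithelial marker list of Fosb+ Atf3+ cells was near that of reference cells. Their fibroblast list was far below that of cells high in Col1a1, which the rule leaves out. The epithelial list without Cdh1 (Cldn4, Gata3, Krt7, Lama5, Sox9 and Wwc1) summed to 137, 133 and 127 transcripts per 1000 in Fosb+ Atf3+ cells and 140, 150 and 136 in matched reference cells. Cells with Col1a1 of 10% or more, a fibroblast gate, had 48.4, 43.0 and 52.2. Within the epithelial list Cldn4 was higher than in reference cells, at 55.0, 38.0 and 50.7 against 17.9, 10.5 and 22.3 per 1000 of the 251 genes outside the rule. Sox9 and Gata3 had lower means than in reference cells and did not pass, so the near-equal sums do not hold for each marker. The fibroblast list without Col1a1 summed to 4.75, 3.08 and 2.40 per 1000, against 42.4, 33.4 and 23.0 in the fibroblast gate. The rule keeps cells of that gate out, so the gaps to it in both lists follow in part from the selection. Per 1000 of the 251 genes the fibroblast list was 5.14, 3.27 and 2.53, against 10.1, 6.90 and 6.47 in reference cells. The endothelial pair Pecam1 and Cdh5 summed to 0.927, 0.906 and 0.470, against 1.80, 1.47 and 0.897 in all kept cells. The macrophage list without the rule's genes summed to 6.06, 6.13 and 7.03, above the 3.44, 4.71 and 6.09 of reference cells in each tumour, and in Fosb+ Atf3+ cells only Cd14 of its 4 genes lay above the blanks. The part of macrophage RNA was not tested. Cdh1, which encodes E-cadherin, measured 9.5, 5.85 and 4.74 per 1000 against 7.40, 5.37 and 4.08 in all kept cells. It was present in 72.8%, 61.4% and 54.6%, compared with 47.6%, 41.7% and 31.8% of all kept cells, which had fewer transcripts. No marker of the list for T or NK cells exceeded the highest blank, and none of the listed B or plasma cell genes is on the panel.

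Reference cells were kept cells with at least 1 Cdh1 and neither Fosb nor Atf3, of which there were 239342, 153394 and 154141. To each Fosb+ Atf3+ cell 1 reference cell of the same tumour was matched on its number of panel transcripts. All 4928 found a partner, and counts were summed per tumour and tested in edgeR with tumour as a block, so n = 3 pairs of sums. A second match inside 300 µm tiles, used where stated, found partners for 1887, 667 and 1913 cells. It left out 102, 40 and 319. The 7 genes of the rule were left out, and levels below are transcripts per 1000 of the other 251 genes, as mean ± SD over 3 tumours. Folds and log2 differences are edgeR estimates after TMM scaling of the sums, so they do not equal ratios of these unscaled levels. The scaling gave larger rises and smaller falls than the levels do. Folds given as "at least" are ratios of levels. Reference cells were not held to the limits on Krt17, collagen and macrophage genes. Of them, 7.39%, 5.23% and 5.51% met the fibroblast gate and 5.53%, 4.10% and 1.48% the macrophage gate, against 0% of Fosb+ Atf3+ cells by construction.

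Of 251 genes, 49 were higher (19.5%) and 40 lower (15.9%) in Fosb+ Atf3+ cells, 35.5% in all, by edgeR's quasi-likelihood test at a Benjamini-Hochberg adjusted p under 0.05. Levels of the 2 groups did not overlap across tumours in 78 of the 251 genes (31.1%). Of the 134 genes above the highest blank in every tumour, 23 were higher (17.2%) and 33 lower (24.6%). The other 26 higher genes lay at the level of the blanks, and in a separate fit 11 of the 27 blanks themselves were higher in Fosb+ Atf3+ cells and 0 lower, with a median log2 difference of 0.45 and a range from -0.19 to 1.60. Blanks made up 0.563%, 0.548% and 0.555% of transcripts in Fosb+ Atf3+ cells and 0.494%, 0.438% and 0.428% in reference cells. The part of false decoding in rises of weak genes was not tested, and the accounts below name genes above the blanks unless stated. Without tumour 1, 0 genes passed either way in edgeR, although 94 had an unadjusted p under 0.05. Scaled by library size in place of TMM, 28 were higher and 57 lower, a split with more lower than higher genes.

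Every AP-1 gene that could be tested was higher, 3 of 3, where 19.5% of all genes were. Medians over all 251 genes were 0.04 and over those above the blanks -0.30 on the log2 scale. Fos, of the same family as Fosb, measured 18.3, 17.2 and 19.3 per 1000 in the Fosb+ Atf3+ cells of tumours 1, 2 and 3 and 4.24, 3.01 and 6.09 in reference cells. The 2 groups did not overlap, and the difference was 2.29 ± 0.24 (log2, SE; edgeR adjusted p = 5.0e-12), a 4.90-fold rise seen in 3 of 3 tumours. Jun, the main Jun family subunit, measured 63.8, 75.3 and 59.7 against 27.5, 22.4 and 29.7, again with no overlap and a rise of 2.87-fold. Junb, a weaker activator of the same family, measured 25.7 ± 4.9 against 17.1 ± 3.6. Its fitted rise was 1.73-fold and its mean ratio of levels 1.51. Junb no longer passed (adjusted p = 0.098) when both groups had to have Cdh1 and meet the same limits (an alternative chosen after seeing the data), where its log2 difference was 0.47.

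Of the 8 other immediate early genes on the panel, 7 were higher (19.5% of all genes were) and only Zfp36, an RNA-destabilising protein gene at the level of the blanks, did not pass. Their median log2 difference was 1.61. Klf4, a transcription factor of epithelial differentiation and stress, showed the largest rise of the named genes, 2.36 ± 0.33 on the log2 scale (edgeR adjusted p = 1.9e-08). Its levels were 4.24, 3.26 and 2.56 in Fosb+ Atf3+ cells against 0.830, 0.707 and 0.673, with no overlap. Nr4a1, an orphan nuclear receptor, measured 25.9, 52.8 and 34.1 against 10.8, 12.7 and 14.4, a 3.28-fold rise that was largest in tumour 2. Its relative Nr4a3 was likewise highest in tumour 2, at 3.99 against 0.639, while tumours 1 and 3 gave 1.11 against 0.601 and 1.46 against 0.446. Nr4a2 rose less, 1.73-fold, with overlapping groups, and lost its call under matched limits (log2 0.65, adjusted p = 0.19).

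Egr1, a zinc finger factor induced by growth factor signalling, measured 15.8, 38.6 and 44.3 against 10.3, 8.62 and 22.4. The groups overlapped because the tumours differed in their own Egr1 level, but Fosb+ Atf3+ cells were higher in each, 2.73-fold over the 3 pairs (edgeR adjusted p = 8.7e-08). Dusp1, which dephosphorylates and switches off MAP kinases, was uniform across tumours at 4.0, 3.79 and 4.01 against 1.75, 1.0 and 1.53, a 3.23-fold rise. Thbs1, which encodes the secreted matricellular protein thrombospondin 1, measured 88.9, 50.7 and 152 against 35.8, 21.6 and 56.8. It too followed the level of each tumour and rose 2.87-fold.

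**Figure D1:**
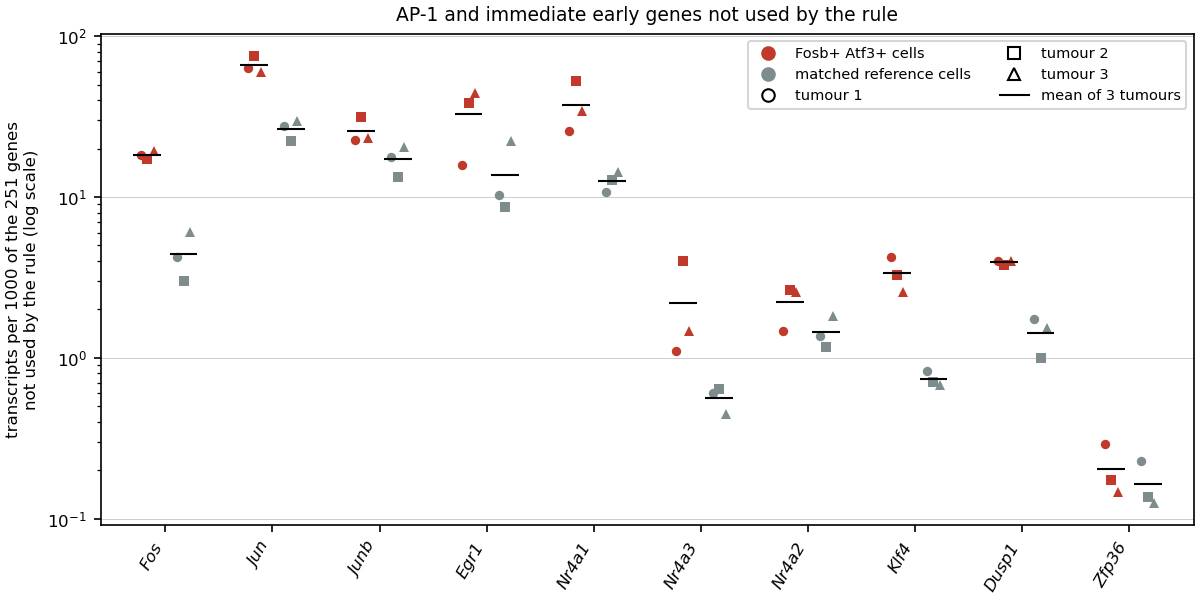
Levels of the AP-1 and immediate early genes, as transcripts per 1000 of the 251 genes outside the rule (log axis), in Fosb+ Atf3+ cells (red) and matched reference cells (grey), with a symbol for each of the 3 tumours and a bar for their mean. Fos, Jun, Junb, Klf4, Nr4a1, Nr4a3 and Dusp1 do not overlap between the groups, as 31.1% of all 251 genes do not. Egr1 and Nr4a2 overlap, and Zfp36 lies at the level of the blanks.

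Of the 6 epithelial markers tested, Cldn4 and Krt7 were higher, Wwc1 was 1.38-fold lower, and Sox9, Gata3 and Lama5 did not pass. Of the luminal pair, Wap was lower, above the blanks in 2 tumours, and Gata3 did not pass. Cldn4, a tight junction claudin, measured 55.0, 38.0 and 50.7 against 17.9, 10.5 and 22.3 with no overlap, a 3.37-fold rise (edgeR adjusted p = 8.3e-12). S100a6, a calcium-binding protein gene, was nearly the same in every tumour at 11.2, 10.2 and 10.7 against 3.37, 3.47 and 4.05. Anxa1, an annexin that limits inflammation, rose 3.03-fold on average but unevenly, with 10.3 against 1.80 in tumour 1 and 3.29 against 1.76 in tumour 3. Aldh1a3, a retinaldehyde dehydrogenase used as a marker of mammary progenitor-like cells, measured 1.85, 0.931 and 5.29 against 0.283, 0.504 and 1.02. Its groups overlapped and tumour 3 carried the highest values in both. In reference cells of tumour 1 it lay below the highest blank (0.472), and with the blank as a floor its rise was at least 3.34-fold on average. Against reference cells of the same 300 µm tiles the log2 differences of S100a6, Anxa1 and Aldh1a3 shrank from 1.76, 1.60 and 2.23 to 0.82, 0.78 and 0.97, all still past the threshold.

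The actin and contractile list had 2 of 5 members higher (Actn1, which crosslinks actin, 1.9-fold, and Anxa1) and none lower, with a median log2 difference of 0.30, where 19.5% of all genes were higher. The matrix list had 3 of 15 higher and 4 lower, with a median log2 difference of -0.27, shares near the 19.5% of all genes that were higher and the 24.6% of those above the blanks that were lower. Beside Thbs1, the higher members were Tnc, encoding tenascin C of wound and tumour matrix, at 6.56 ± 2.6 against 3.57 ± 0.60, and Mmp13, a collagenase above the blanks in only 2 tumours. In tumour 3 Tnc differed little, 4.49 against 4.25. The transcription factor genes Ets2 and Tgif1 rose 1.86-fold and 2.34-fold, and the luminal keratin gene Krt7 1.89-fold.

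Of 19 inflammatory and NF-kB genes, 6 were higher and 2 lower, with a median log2 difference of 0.52. Of all genes, 19.5% were higher and 15.9% lower, and only 8 of the 19 lay above the blanks. The higher members above the blanks were Tnfaip3, a feedback inhibitor of NF-kB, at 0.795, 2.82 and 1.53 against 0.670, 0.910 and 0.972, Nfkbia, encoding the inhibitor IkB alpha, 1.66-fold, Rela, encoding the p65 subunit, 1.47-fold, and the lipopolysaccharide co-receptor gene Cd14, 1.67-fold. Cd14 is also on the macrophage list. Both inhibitors were highest in tumour 2, the section where Nr4a1 and Nr4a3 were highest. Il1a and Il6 also passed, but at the level of the blanks. Tnfrsf1b, encoding TNF receptor 2, and Saa1, an acute phase protein gene, were lower, 2.15-fold and 1.98-fold. Within tiles Tnfrsf1b did not pass (log2 -0.34, edgeR adjusted p = 0.20). Of 12 interferon genes, 2 were higher, Cxcl10 and Cxcl9, both at the level of the blanks, and none lower, a share near the 19.5% of all genes.

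**Figure D2:**
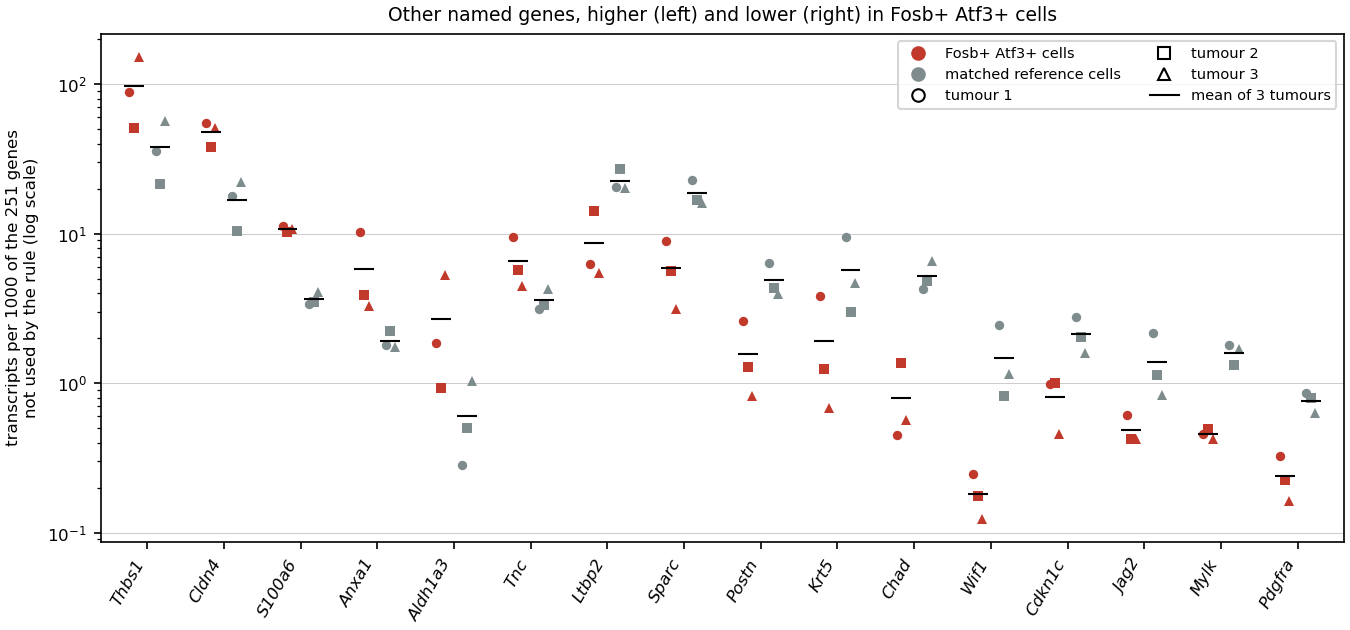
Levels of other named genes in Fosb+ Atf3+ cells (red) and matched reference cells (grey), as transcripts per 1000 of the 251 genes outside the rule (log axis), with a symbol per tumour and a bar for the mean of 3 tumours. The 6 genes on the left were higher in each tumour and the 10 on the right lower in each tumour.

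The most negative fitted differences were those of Wif1 and Chad. Wif1, a secreted inhibitor that binds Wnt proteins, measured 0.247, 0.175 and 0.123 per 1000 against 2.45, 0.824 and 1.15 in reference cells (log2 difference -2.77 ± 0.33, edgeR adjusted p = 2.6e-10). In Fosb+ Atf3+ cells it lay below the highest blank (0.525, 0.550 and 0.567), so the fall has only a bound, at least 2.42-fold on average with the blank as a floor. Chad, encoding the cartilage matrix protein chondroadherin, measured 0.452, 1.36 and 0.562 against 4.28, 4.81 and 6.60 (log2 difference -2.68 ± 0.34), below the highest blank in tumours 1 and 3. Neither gene's groups overlapped. With reference cells taken from the same 300 µm tiles the log2 differences shrank to -1.13 for Wif1 and -0.87 for Chad, both still past the threshold.

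Of the signalling lists, Wnt had 6 of 26 members lower, 1 higher (Wnt6, above the blanks in 2 tumours) and a median log2 difference of -0.25. Its lower share is near that of all genes above the blanks, 24.6% with a median of -0.30, and so is that of the Notch list. With Wif1 fell the ligands Wnt5a and Wnt5b, 1.84-fold and 1.78-fold, the co-receptor Lrp5, 1.47-fold, the receptor Fzd2, 1.67-fold, and Rnf43, a ligase that removes Wnt receptors, 1.91-fold. Axin2, a standard target of Wnt signalling, gave a log2 difference of -0.29 and did not pass. In the Notch list 3 of 11 were lower and none higher, with a median of -0.42: the ligands Jag2 (at least 2.21-fold with the blank as a floor) and Dll1 (1.84-fold) and the target Hey1 (1.91-fold). The receptor Notch1 did not pass, with 15.7 ± 3.3 against 22.0 ± 7.9. In the TGF-beta list 3 of 8 were lower (15.9% of all genes and 24.6% of those above the blanks were) and none higher, with a median of -0.41. The lower genes were Tgfb3 (1.64-fold), the co-receptor Tgfbr3 (1.69-fold) and the target Pmepa1 (1.75-fold), while Tgfb1 gave a log2 difference of -0.31 and did not pass.

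Several basal and stromal genes were lower. Krt5, the keratin of basal epithelium, measured 3.83, 1.25 and 0.684 against 9.47, 3.01 and 4.69. With Krt15, which was not above the blanks in every tumour, it made 2 of 5 basal genes lower (15.9% of all genes were). Krt14 gave a log2 difference of 0.00. The summed basal list was 7.61, 3.21 and 4.09 against 14.8, 6.64 and 8.28. Sparc and Postn, matricellular genes of stroma, were 2.96-fold and 2.97-fold lower, Pdgfra, a fibroblast receptor below the highest blank in Fosb+ Atf3+ cells, at least 1.37-fold, and Ltbp2, which binds elastic fibres, 2.49-fold. The contractile kinase gene Mylk, also below the blank there, was at least 2.90-fold lower. Of the 7 fibroblast markers tested, Pdgfra, Postn and Pi16 were lower, Clec3b was higher at the level of the blanks, and Dpt, Lrrc15 and Thy1 did not pass. Pi16 lay below the highest blank in Fosb+ Atf3+ cells of all 3 tumours. With the blank as a floor its ratio of reference to Fosb+ Atf3+ cells was 1.08, 0.794 and 0.614, so the size of its fall could not be measured. The summed fibroblast list, which includes Pdgfra, Postn and Pi16, was 5.14, 3.27 and 2.53 in Fosb+ Atf3+ cells against 10.1, 6.90 and 6.47.

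The rule caps Col1a1 and Krt17, and leaves out cells with Adgre1 or Cx3cr1, in Fosb+ Atf3+ cells only. With reference cells held to the same limits, Sparc, Postn, Pdgfra, Krt5, Mylk and Ltbp2 stayed lower (log2 -1.22, -1.18, -1.24, -1.25, -1.64 and -1.47). Within tiles Mylk and Ltbp2 were nearer to reference cells (log2 -0.92 and -0.56). Pdgfrb, a pericyte and fibroblast receptor with a log2 difference of -1.17 at first, did not stay past the threshold (log2 -0.60, adjusted p = 0.087). The part of neighbouring stromal RNA in the remaining differences was not tested.

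Proliferation genes were lower or did not pass. Mki67, the proliferation marker, measured 8.53, 2.49 and 2.06 against 10.1, 5.14 and 6.90, a 1.76-fold fall that was small in tumour 1. Top2a, the topoisomerase of dividing cells, and Ccnd1, encoding cyclin D1, gave log2 differences of -0.70 and -0.39 and did not pass. Cdkn1c, the cell cycle inhibitor p57, fell 2.36-fold (log2 -1.24, and -0.60 within tiles) and Id2, an inhibitor of differentiation factors, 2.14-fold. H2-K1, a class I MHC gene, measured 5.99, 7.44 and 1.85 against 13.2, 11 and 5.81. The luminal regulator Gata3 gave 26.2 ± 7.2 against 40.2 ± 13 and Sox9 36.2 ± 7.8 against 49.1 ± 4.3, and neither passed.

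Promoters were read for genes of the results. RefSeq promoters (GRCm38.p6, 250 bases before the start) matched 19 of the 23 higher genes and 22 of the 33 lower genes above the blanks. The AP-1 motif TGANTCA, searched on both strands, occurred in 2 of the 19 (Cldn4 and Tnfaip3) and in 2 of the 22 lower genes (Mylk and Wnt5b). It occurred in 17 of the 180 matched genes of all those tested (9.44%) and in 6.87% of 27025 promoters. The ATF/CREB motif TGACGTCA, which does not contain TGANTCA, occurred in 1 of the 19 (Dusp1), in 0 of the 22, in 2 of the 180 and in 1.62% of all promoters. The Cldn4 and Dusp1 sequences are shown because Cldn4 carries the AP-1 motif in 2 copies and Dusp1 the ATF/CREB motif, with motifs in capitals, 5′ to 3′ on the minus strand, at chr5:134946935-134947184 and chr17:26508473-26508722.
Cldn4: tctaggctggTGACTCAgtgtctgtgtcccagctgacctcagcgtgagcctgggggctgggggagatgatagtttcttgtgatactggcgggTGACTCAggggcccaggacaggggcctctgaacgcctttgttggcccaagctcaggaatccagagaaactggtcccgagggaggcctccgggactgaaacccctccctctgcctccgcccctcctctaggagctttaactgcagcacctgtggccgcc
Dusp1: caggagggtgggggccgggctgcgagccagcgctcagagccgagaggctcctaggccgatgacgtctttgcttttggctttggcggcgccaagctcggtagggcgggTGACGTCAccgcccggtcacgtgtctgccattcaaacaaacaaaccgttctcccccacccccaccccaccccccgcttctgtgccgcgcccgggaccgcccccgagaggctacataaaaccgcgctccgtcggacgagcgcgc

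In Cldn4 the motifs begin 240 and 158 bases before the start, and in Dusp1 143 bases before it. These are matches of letters, and binding was not measured.

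Within the Fosb+ Atf3+ cells, Fos, Jun, Nr4a1, Egr1, Klf4 and Dusp1 were higher in the highest than in the lowest class of Fosb and Atf3 counts in 3 of 3 tumours, a description since both counts chose the cells. Fos averaged 13.8 per 1000 in cells with a sum of 4 or 5 Fosb and Atf3 transcripts, 15 with 6 or 7 and 21.8 with 8 or more. Jun went from 56.3 to 62.1 and 72.9, Nr4a1 from 27.8 to 32.2 and 44.1, and Egr1 from 27.8 to 30.8 and 36.2. Junb went from 24.7 to 25.8 and 26.2 but was lower in the highest class of tumour 3, 22.8 against 23.8. Thbs1 was lower in that of tumour 2, 45.2 against 59.1, and S100a6 was flat at 11.1, 11.2 and 10.4. The cells with a sum of 8 or more also had higher median totals, 185, 233 and 239 transcripts against 157, 192.5 and 189 in those with a sum of 4 or 5.

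Cells with 1 of the 2 factors had part of the profile. Cells with at least 2 Atf3 and no Fosb, matched on total, had Fos at 6.31, 5.80 and 10.3 and Cldn4 at 37.6, 19.2 and 37.4. Cells with at least 2 Fosb and no Atf3 had more Fos, at 12.7, 8.19 and 14.7, and less Cldn4, at 25.9, 16.6 and 31.6. The Fosb cells were matched less fully (1820, 667 and 1637 cells, against 1988, 707 and 2227 Atf3 cells). Their median totals were lower, 164.5, 208 and 178 against 173.5, 215 and 215. Dusp1 in the Atf3 cells was 4.31, 2.95 and 2.76, in tumour 1 as high as in Fosb+ Atf3+ cells. Just inside the thresholds, 270, 92 and 340 cells with exactly 2 of each had Fos at 11.6, 12.3 and 12.4 per 1000 panel transcripts. Just outside, cells with 1 Fosb and at least 2 Atf3 had 10.2, 10.2 and 12.3, and cells with 1 of each 6.89, 5.25 and 9.68.

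The Fosb+ Atf3+ cells without a Cdh1 transcript (542, 273 and 1014) were smaller and shallower, with median totals of 136, 158 and 165.5 against 191, 266 and 254.5 in those with Cdh1. Their epithelial list summed to 130, 121 and 118 per 1000 against 138, 138 and 132. Sox9 was present in 89.1%, 94.5% and 92.9% of them, against 89.1%, 87.8% and 88.6% of all kept cells, which had fewer transcripts. At least 5 Sox9 transcripts were present in 37.8%, 56.4% and 47.8%. The deeper matched reference cells had 74.9%, 79.8% and 78.2%, and all kept cells 46.4%, 46.8% and 42.7%. Fos was present in 72.3%, 79.9% and 82.9%, against 28.6%, 25.7% and 38.4% of all kept cells.

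Fosb+ Atf3+ cells lay in patches. In tumour 1, 67.6% had another Fosb+ Atf3+ cell within 25 µm, in tumour 2 39.0% and in tumour 3 64.2%, whereas 3.42%, 2.55% and 3.18% of reference cells had such a cell. The difference averaged 53.9 ± 15.1 percentage points (n = 3, higher in 3 of 3, exact paired permutation test, two-sided p = 0.25, the smallest that 3 pairs can give; 0.27 adjusted over 13 measures of position). The median distance to the nearest other Fosb+ Atf3+ cell was 14.6, 45.5 and 16.3 µm, against 176, 191 and 172 µm from reference cells. Tumour 2 was the loosest. The nearest one was under 10 µm away for 33.3%, 14.1% and 30.4%, a distance at which 1 cell may have been segmented as several, and the part of this in the clustering was not tested.

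**Figure D3:**
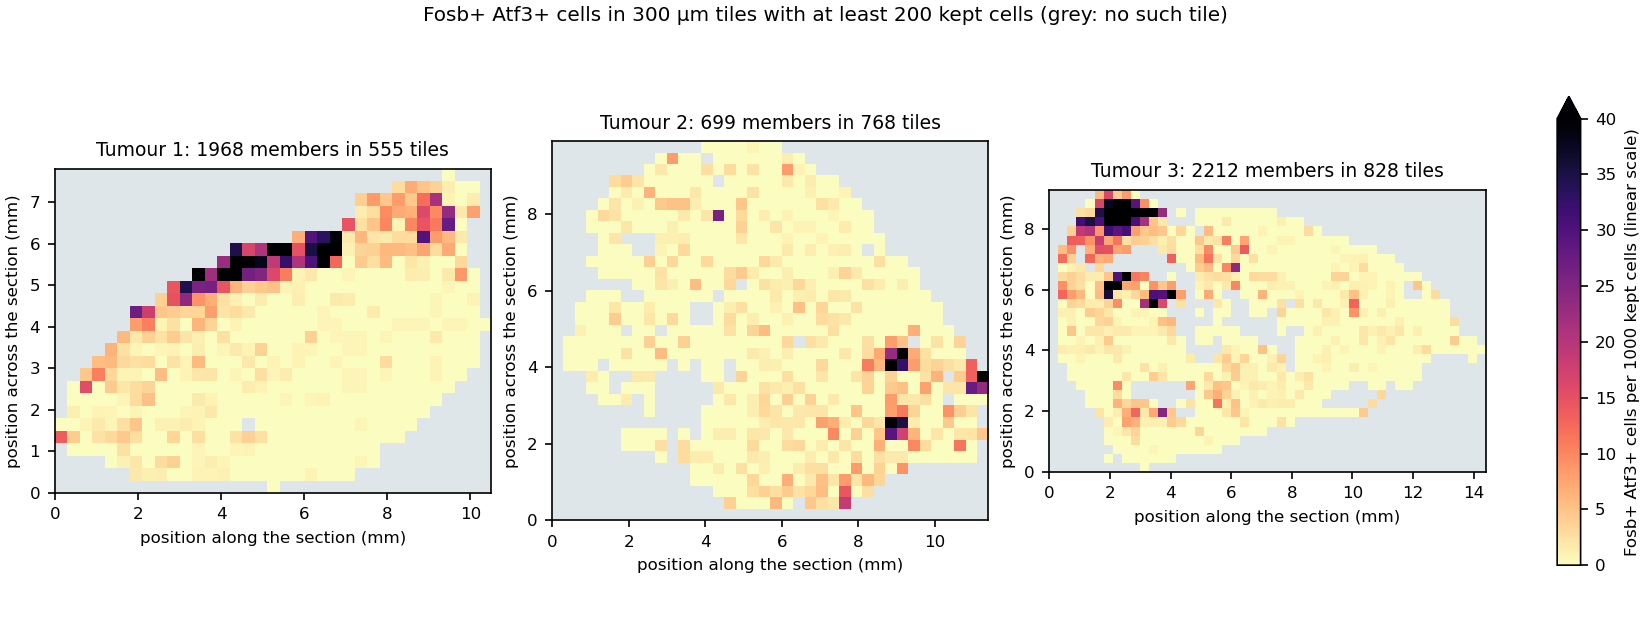
Fosb+ Atf3+ cells per 1000 kept cells (colour, linear scale, capped at 40) in 300 µm tiles of the 3 sections, with axes in mm and grey where a tile has under 200 kept cells. They form a band along 1 side of tumour 1, a few spots on the right of tumour 2 and patches in the upper left of tumour 3, and most tiles hold none.

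At the scale of 300 µm tiles, 284 of 555 tiles of tumour 1 held none, as did 487 of 768 in tumour 2 and 473 of 828 in tumour 3. Matched reference cells were absent from 59, 370 and 219. The 10% of tiles richest in Fosb+ Atf3+ cells held 73.4%, 65.1% and 79.0% of them, and the 10% richest in reference cells held 26.6%, 38.9% and 34.4% of those. The densest tiles reached 89.3, 85.3 and 119 Fosb+ Atf3+ cells per 1000 kept cells.

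Clustering was also present inside tiles. Reference cells drawn from the same tiles had a Fosb+ Atf3+ cell within 25 µm in 28.1%, 8.25% and 23.5%, which left a difference of 35.6 percentage points. This match left out 102, 40 and 319 Fosb+ Atf3+ cells without a partner in their tile. At 100 µm the groups were closer, 89.9%, 64.8% and 86.4% of Fosb+ Atf3+ cells against 86.4%, 55.3% and 81.4% of tile-matched reference cells.

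**Figure D4:**
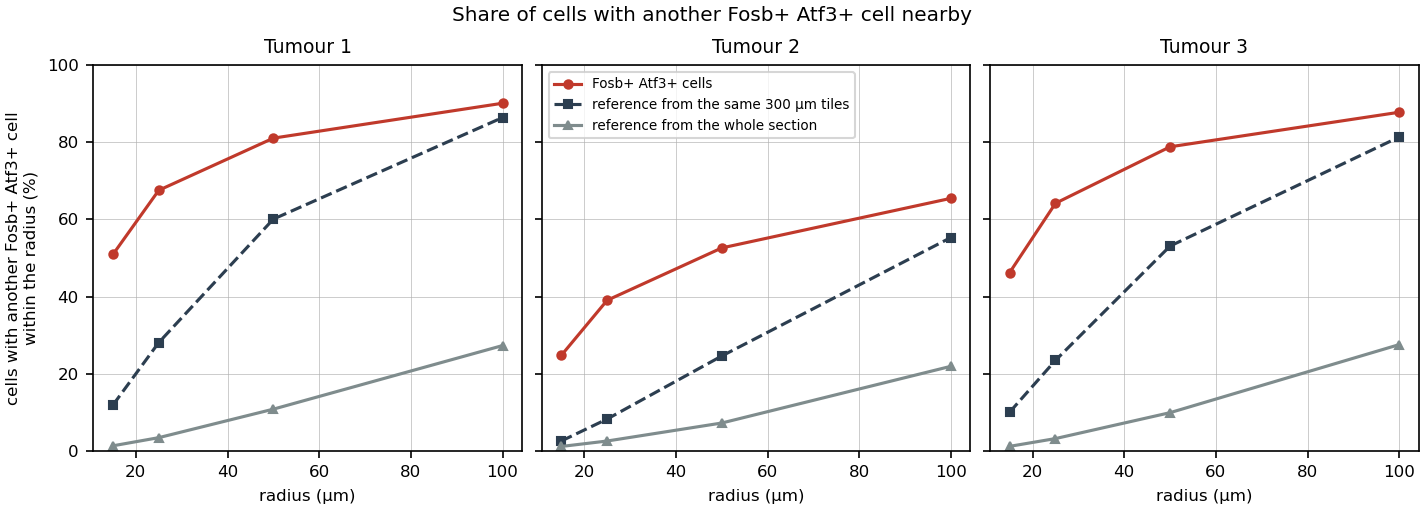
Percent of cells with another Fosb+ Atf3+ cell within 15, 25, 50 and 100 µm in each tumour, for Fosb+ Atf3+ cells (red), reference cells from the same 300 µm tiles (dashed) and reference cells from the whole section (grey). In each tumour the red line is highest at every radius, and the dashed line approaches it at 100 µm.

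The patches lay nearer to the tissue edge than reference cells did. The median distance to the edge was 534, 1219 and 882 µm against 1096, 1432 and 1336 µm, lower in 3 of 3 tumours. The difference averaged -410 ± 178 µm over the section and -28.8 µm within tiles. The shares within 150 µm of the edge were 6.23%, 5.66% and 2.69% against 5.38%, 5.23% and 1.61%, higher in 3 of 3 tumours by a small 0.78 ± 0.33 percentage points. In tumours 2 and 3 the outline ran along the limit of the image for 3350 and 3050 µm, where the true edge is unknown.

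Fosb+ Atf3+ cells lay farther from stroma. Their median distance to a cell of the fibroblast gate was 33.9, 52.5 and 64.6 µm against 19.4, 31.0 and 32.3 µm, and a difference of 15.3 ± 4.8 µm was left within tiles. The distance to an endothelial cell was 38.3, 62.2 and 71.9 µm against 33.5, 44.7 and 52.7 µm. The distance to a macrophage was 24.1, 46.6 and 53.1 µm against 20.7, 28.0 and 46.5 µm. All 3 were larger in 3 of 3 tumours (exact paired permutation p = 0.25, the smallest possible). The cap on Col1a1 and the requirement of no Adgre1 or Cx3cr1 act on the same cells, and reference cells with the same limits gave differences of 21.7, 13.3 and 8.12 µm instead of 22.8, 13.8 and 9.54 µm.

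The surroundings in tumours 2 and 3 held more segmented cells with few transcripts, most of all in tumour 2. Within 50 µm of Fosb+ Atf3+ cells, 2.61%, 8.11% and 4.75% of cells had under 20 panel transcripts, against 2.88%, 2.99% and 2.69% around reference cells. Tumour 1 showed no such difference, and the exact paired permutation p was 0.50. The medians of kept cells within 50 µm were 104, 60 and 79 against 111, 68 and 94.

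Kept cells within 25 µm of a Fosb+ Atf3+ cell that the rule had not selected were then tested. There were 29018, 8491 and 25629 of them, against 50850, 12125 and 46850 around reference cells, with median totals of 113, 122 and 134 against 107, 137 and 122. Levels here are transcripts per 1000 of all 258 panel genes. Of these, 31 were higher (12%) and 17 lower (6.59%) near Fosb+ Atf3+ cells, 18.6% in all by edgeR. Levels of the 2 groups did not overlap across tumours in 45 of the 258 genes (17.4%). Among the 136 above the blanks, 16 were higher (11.8%) and 11 lower (8.09%), and 1 of 27 blanks was higher and 0 lower. Without tumour 3, edgeR called only 1 gene higher and 0 lower, and 50 genes had an unadjusted p under 0.05. DESeq2, with its own size factors, called 43 higher and 53 lower.

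The genes that defined the Fosb+ Atf3+ cells led the list in their neighbours. Fosb measured 3.35, 2.48 and 4.06 per 1000 near them against 0.558, 0.359 and 0.570 near reference cells, with no overlap (log2 2.78 ± 0.21, edgeR adjusted p = 3.0e-06). The reference level in tumour 2 was no higher than the highest blank (0.359), and with the blank as a floor the rise was at least 6.65-fold. Atf3 measured 4.93, 4.31 and 6.59 against 1.03, 1.08 and 1.78, a 4.27-fold rise. The cells at the centre were chosen for at least 2 of each gene or for none, so both groups surround selected cells. All kept cells had Fosb at 0.895, 0.530 and 0.919 and Atf3 at 1.36, 1.19 and 2.39, above the levels near reference cells. Atf3 missed the threshold without tumour 3, at adjusted p = 0.0585. In cells, 6.99%, 5.66% and 10.7% of neighbours had at least 2 Fosb transcripts against 0.692%, 0.536% and 0.835%. The rise was smaller within tiles, log2 1.29 for Fosb and 0.90 for Atf3, and at 25 to 50 µm, 1.08 and 1.04, and past the threshold in each. Some neighbours belonged to both groups. Within tiles these were 8277, 687 and 5773 cells of the 28366, 8228 and 24195 near Fosb+ Atf3+ cells. At 25 to 50 µm they were 8376, 1726 and 7380 of 47268, 19051 and 42894, and in the first comparison 1688, 274 and 1503. Shared cells bring the 2 levels closer, and their part in the smaller differences was not tested. The neighbours included 257, 56 and 860 cells with at least 2 of both genes that other limits of the rule had removed, and 23, 5 and 80 near reference cells. Without them (an alternative chosen after seeing the data) the log2 differences were 2.53 for Fosb and 1.96 for Atf3.

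In that outer ring only Fosb and Atf3 were higher and only Wif1 lower (log2 -1.33). With cells this close together, the part of transcripts assigned across cell borders was not tested.

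Other immediate early genes were also higher near Fosb+ Atf3+ cells. Of 5 AP-1 genes, 4 were higher (Fosb, Atf3, Fos 2.11-fold and Jun 1.54-fold) and Junb did not pass, at 19.5 ± 2.7 against 16.6 ± 3.6. Of the other 8 immediate early genes, 5 were higher (12% of all genes were), Klf4 2.42-fold, Thbs1 1.99-fold, Dusp1 1.73-fold, Nr4a3 1.53-fold and Nr4a1 1.52-fold, and Egr1, Nr4a2 and Zfp36 did not pass. Nr4a3 lost its call in neighbours with Cdh1 (adjusted p = 0.081) and Nr4a1 when Fosb+ Atf3+ and reference cells both had to have Cdh1 and meet the same limits (adjusted p = 0.062). Aldh1a3 measured 1.11, 0.660 and 3.29 against 0.260, 0.341 and 0.914. Its reference levels in tumours 1 and 2 lay below the highest blank (0.449 and 0.359). With the blank as a floor its rise was at least 2.54-fold on average. S100a6, Anxa1, Cldn4 and Tnc rose 2.43-fold, 2.14-fold, 1.84-fold and 1.83-fold. Within tiles the log2 differences of Aldh1a3, S100a6, Klf4 and Anxa1 were 0.52, 0.53, 0.69 and 0.39, past the threshold and smaller than the 1.69, 1.28, 1.28 and 1.10 over the section. As above, the groups shared neighbours within tiles. Both comparisons draw on the same reference cells or their surroundings, so they are given side by side only.

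**Figure D5:**
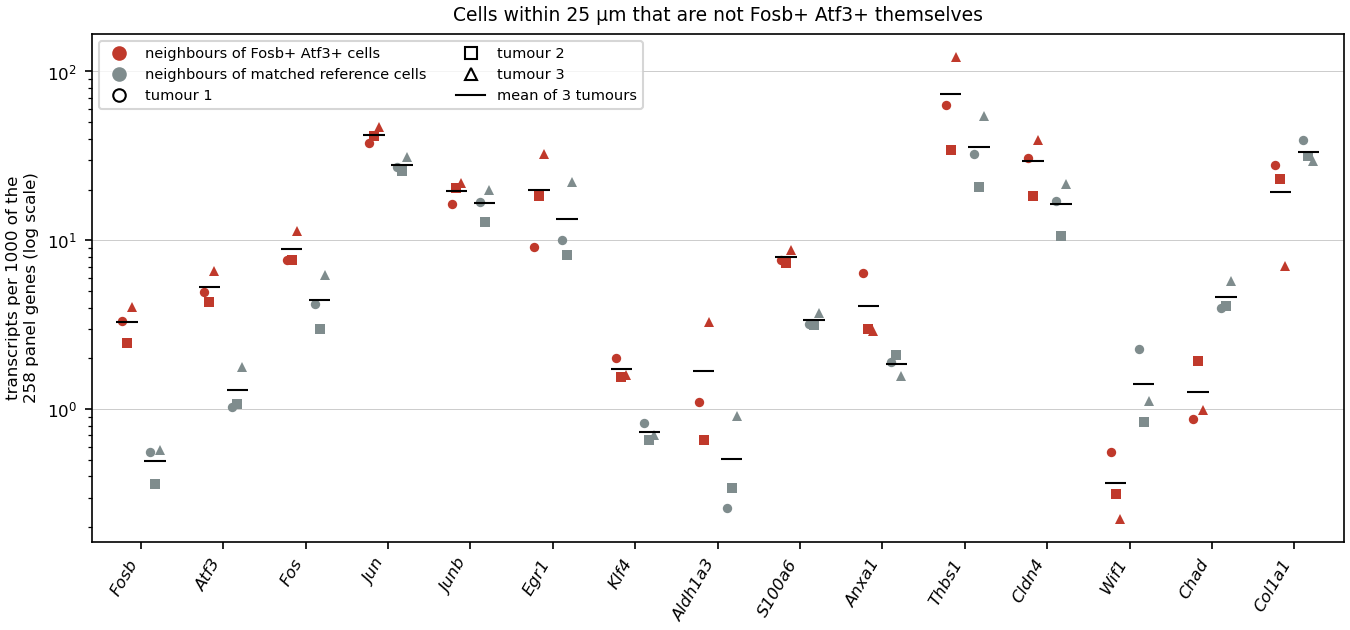
Levels in cells within 25 µm of Fosb+ Atf3+ cells (red) and of matched reference cells (grey), as transcripts per 1000 of all 258 panel genes (log axis), with a symbol per tumour and a bar for the mean of 3 tumours. Fosb and Atf3 are the most separated genes, Junb and Egr1 overlap, and Wif1, Chad and Col1a1 are lower near Fosb+ Atf3+ cells in each tumour.

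Lower in the neighbours were Chad, at 0.871, 1.93 and 0.996 against 3.97, 4.08 and 5.77, and Wif1, at 0.562, 0.315 and 0.224 against 2.27, 0.845 and 1.11. Within tiles, where the groups shared neighbours, their log2 differences shrank from -1.90 to -0.29 and from -1.88 to -0.35, still past the threshold. Wif1 lay below the highest blank in the neighbours of tumours 2 and 3 (0.491 and 0.432). With the blank as a floor its fall was at least 2.62-fold on average. Stromal genes were lower too: Col1a1, the fibrillar collagen, at 27.8, 23.0 and 7.09 against 39.5, 31.4 and 29.6, Sparc 1.77-fold, Pdgfra at least 1.49-fold with the blank as a floor, and Ltbp2 1.91-fold. Ltbp2 lost its call within tiles (log2 -0.21, adjusted p = 0.067). The summed fibroblast list, which includes Col1a1 and Pdgfra, was 35.7, 28.1 and 9.89 against 49.8, 38.0 and 35.1. The part of fibroblast RNA in these differences was not tested. Restricted to neighbours with Cdh1, Fosb, Atf3, Wif1 and Chad stayed past the threshold (log2 2.64, 1.98, -2.03 and -1.98), while Col1a1 (log2 -1.05, adjusted p = 0.082) and Sparc (log2 -0.86, adjusted p = 0.071) did not.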

How the data were processed

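The deposited tables give, for each segmented cell, whole-number transcript counts per gene and blank code, and, per the file headers, a volume and a centre position, whose units were read as µm3 and µm because none is written there. The submitters' processing notes list Scanpy 1.9.3 with no role. Decoding and segmentation software were not given in the sources used here. Total panel transcripts were 71492483, 60759690 and 78051090 in tumours 1, 2 and 3.

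Counts were summed per tumour and group of cells and tested with edgeR 4.0.16 (TMM, filterByExpr, quasi-likelihood F-test, Benjamini-Hochberg threshold 0.05) in R 4.3.3, with tumour as a block because both groups of cells came from the same section. Matching was within 5% of the total, without replacement. Reference cells for tiles were matched within 10%. A gene was above the blanks when its sum exceeded the highest blank in at least 1 group in every tumour. Bounds on folds are mean ratios of levels over tumours, with the highest blank as the floor. Other folds and log2 differences are edgeR estimates after TMM scaling unless stated. Positions were compared by exact paired permutation. On counts simulated with a fixed biological variation of 10%, 20 of 20 genes changed by a log2 of 1 and 11 of 20 changed by 0.5 were recovered for the cells themselves. For the neighbours 20 of 20 and 18 of 20 were recovered. False calls were 1 of 211 and 1 of 218 unchanged genes. The 10% was set and not taken from these sections, so the rates do not give the power of the tests here.

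The rule, gene lists and tests were chosen with earlier results of these data known. Named were the 12 highest and 12 lowest called genes above the blanks with 1 sign in every tumour (10 for neighbours, with Fosb and Atf3), all AP-1 and immediate early genes, and up to 4 of each other list. Further called list members were named after their values were seen. Alternatives covered normalization, DESeq2 1.42.0, filters, the replicate block, single tumours, thresholds, matching and reference cells.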

Additional observations from a re-analysis of the deposited data

How the results depend on the processing

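Against 49 higher genes in Fosb+ Atf3+ cells, scaling by library size gave 28, thresholds of at least 3 Fosb and Atf3 gave 28, the fit with no replicate block 18, and leaving out 1 tumour 0 to 27. Against 40 lower, library size gave 57, no replicate block 6 and leaving out 1 tumour 0 to 18. Library size moved the median gene from 0.04 to -0.17 (log2). For neighbours, 31 higher became 18 with library size, 1 with no replicate block, 2 at 25 to 50 µm, 20 in neighbours with Cdh1 and 1 to 49 without 1 tumour. The 17 lower became 9 with library size, 53 with DESeq2, 0 with no replicate block (29 genes at an unadjusted p under 0.05), 1 at 25 to 50 µm, 11 in neighbours with Cdh1, 34 with another random seed, 26 with Cdh1 required in the Fosb+ Atf3+ cells, 31 when matched without Fosb and Atf3 counts, 38 when matched on volume too, 27 within tiles, 29 with at least 40 counts per cell, 28 without neighbours that had at least 2 of both genes (chosen after seeing the data), and 0 to 18 without 1 tumour. The cause of these shifts was not tested. The difference in shares with another Fosb+ Atf3+ cell within 25 µm was 35.6 points within tiles, and the edge distance difference -28.8 µm. The share of Fosb+ Atf3+ cells, 0.269% on average, was 0.123% with at least 3 of each, 1.27% with at least 1 and 0.0790% after thinning. Among neighbours, Timp2 reversed to 0.078 within tiles and Zfp36 to -0.025 at 25 to 50 µm. Nr4a2, at 0.0093 and far from the threshold, turned to -0.034 with library size, -0.020 with DESeq2, -0.22 at 25 to 50 µm, -0.052 with Cdh1 in neighbours, -0.098 with the same limits on reference cells, -0.018 with Cdh1 in Fosb+ Atf3+ cells, -0.025 when matched without Fosb and Atf3, -0.042 on volume, -0.025 at 40 counts, -0.042 with the same gate on both groups and -0.053 without those neighbours, and ranged from -0.13 to 0.16 without 1 tumour. None of the 27 genes checked in Fosb+ Atf3+ cells reversed: the 26 with a call kept it in 379 values and lost it in 63, and Zfp36, with none, passed in 1. These counts rest on 3 sections, and 117 of the 251 genes were not above the blanks.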
